A study of Saccharomyces cerevisiae with 9 samples.

Results

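Budding yeast grown in 0.5% glucose (CR, calorically restricted) was compared with yeast grown in 2% glucose (NR, non-restricted), gene by gene, on day 5 after inoculation. All 5667 genes of the deposited table were followed, taken from its 5716 budding yeast probe sets, on 3 CR arrays and 3 NR arrays. These are 6 of the 9 arrays of the series. Both groups were grown in YPD, a rich medium of yeast extract and peptone, at 30 °C, and all cells carry the BY4741 background, a haploid S288C derivative with mating type a. The other 3 arrays (RM) had 2% glucose and 100 nM of rapamycin, which blocks TOR. They entered only the estimate of the spread and the mean value by which genes were grouped by signal. The labels speak of biological triplicates and nothing further says how separate the cultures were, so the p-values measure the spread between these samples. All values are log2 values per array, and a difference of 1 is a factor of 2.

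Yeast senses glucose through protein kinase A and the Snf1 kinase, and its nitrogen and amino acid supply through TOR. A batch culture first ferments glucose to ethanol, then passes through the diauxic shift, respires the ethanol and enters stationary phase. Lowering the starting glucose is a standard form of caloric restriction in this organism, and cultures begun on less sugar reach that shift at a lower cell density.

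The spread was unequal between the groups, which bears on every value below. The median SD of a gene was 0.055 in CR, 0.294 in NR and 0.161 in RM. The 3 CR arrays correlated at 0.997 to 0.998 over genes. The first and the second NR array correlated at 0.977, and the third, NR replicate 3, stood apart at 0.928 and 0.948 with its group mates. NR replicate 3 lay more than 1 from the mean of its mates in 566 genes, beside 293 for replicate 1, 124 for replicate 2, and at most 1 for any CR array. In genes called lower under CR it was the highest NR array in 64.8%, and in genes called higher the lowest in 69.7%. This array itself enters the calls, and the same shares over all genes were not counted. Without NR replicate 3, 1832 of the 2139 called genes kept their call and 0 were called the other way. Where a gene named below was not called without it, or a described count moved by more than 1.5 times, this is stated. Probe sets of LEU2, MET17 and URA3, which are deleted in BY4741, lay between 0.71 and 1.92 on all 6 arrays. That of HIS3, whose allele in this strain family loses only an internal stretch, lay between 5.38 and 6.83. MFA2, which encodes the a-factor pheromone of mating type a, was at 6.80, 6.75 and 6.72 in CR and 8.20, 8.13 and 10.27 in NR.

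Of the 5667 genes, 2139 (37.7%) were called, 1013 higher under CR (17.9%) and 1126 lower (19.9%). A gene was called where limma's p, adjusted by Benjamini-Hochberg over all genes, was under 0.05 and the change was 2-fold or more. Every group count below is read against these shares. The median log2 change over all genes was 0.02 and the median absolute change 0.76, beside a median half-width of 0.385 for the 95% interval of a gene. In 2135 of the called genes the CR and NR arrays did not overlap, which also holds for 75.5% of all genes tested. The counts also differed with signal. Genes were cut into 4 equal groups by mean value over the 9 arrays. Without the dimmest group, 883 of 4250 genes were higher (20.8%) and 747 lower (17.6%). That mean includes the CR arrays, so a fall under CR itself moves a gene toward the dimmest group. How much of the shift comes from this was not tested. Many list counts that moved under this limit are given as counts without dim genes, and others moved but are not given. Errors printed as ± are standard errors of the log2 change from the same fit, with n = 3 arrays a group. Named members that were not called, such as partners of called genes, were chosen after their values were seen.

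At the upper end, GPX2, a phospholipid hydroperoxide peroxidase, was at 10.42, 10.79 and 10.64 in CR and at 5.20, 5.16 and 5.10 in NR. The uncharacterised YLR108C was at 10.24, 10.24 and 10.30 in CR against 5.42, 5.33 and 5.00. For both, every CR array lay far above every NR array. SRL4 had the widest NR spread among the 15 highest genes, at 7.89, 5.92 and 2.99 in NR beside 9.34, 9.29 and 9.37 in CR. The change of SRL4, 3.74 ± 0.94, had a 95% interval from 1.62 to 5.86. ISU2, a scaffold protein on which iron-sulfur clusters are built, rose by 3.43 ± 0.18. TOG1, a zinc cluster regulator of oleate use, rose by 3.21 ± 0.18, and ALG7, whose product begins the lipid-linked N-glycan precursor, by 3.20 ± 0.19. MND2, a subunit of the anaphase promoting complex, was 8.20-fold higher, CAF120, a partner of the Ccr4-Not deadenylase, 7.78-fold, and CSN9, a subunit of the COP9 signalosome, 7.41-fold.

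At the lower end, PDR12, an exporter of weak organic acids, was at 5.91, 5.93 and 5.96 in CR and at 10.81, 11.23 and 12.03 in NR, without overlap. HSP30, a plasma membrane protein that restrains the proton pump, had the tightest NR values of the 15 lowest genes, at 11.93, 11.90 and 11.87 beside 7.23, 7.13 and 7.54 in CR. URA1, dihydroorotate dehydrogenase, was 27.1-fold lower, and MLS1, the malate synthase of the glyoxylate cycle, 21.8-fold. HOP2, a meiotic pairing factor, lay at 1.85, 1.63 and 1.35 in CR and at 6.0, 6.19 and 5.90 in NR. PUL3, a membrane transporter, was at 2.96, 2.12 and 1.88 in CR beside 6.95, 6.99 and 5.71 in NR. EGO4 was 24.1-fold lower. PGK1, HXK2 and URA2 also stood among the 15 lowest, with NR replicate 3 the highest NR array in each.

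**Figure D1:**
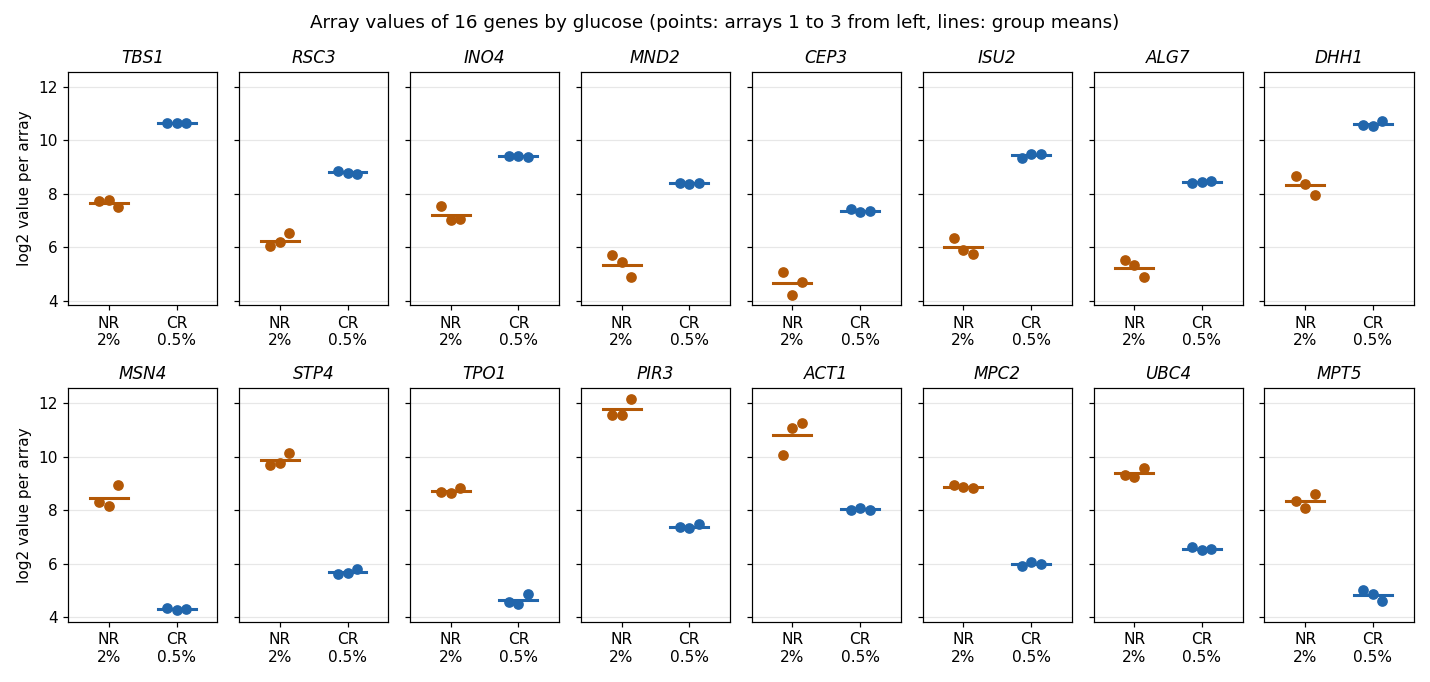
Log2 value of 16 genes on each of the 3 NR arrays (2% glucose) and the 3 CR arrays (0.5% glucose), as points in the order of the replicate numbers, with lines at the group means. The upper row holds genes called higher under CR and the lower row genes called lower, and in none of them do the groups overlap. The CR points lie close together, while the NR points spread more, as for ACT1, from 10.07 to 11.27.

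Genes for DNA-binding regulators of the zinc cluster and basic zipper groups were called higher far more often than lower. Of 46 measured zinc cluster regulators, a fungal family that binds DNA through 6 cysteines holding zinc, 21 were higher and 2 lower, with a median log2 change of 0.84. TBS1 stood at 10.63, 10.64 and 10.66 in CR and 7.72, 7.78 and 7.50 in NR. CEP3, whose product is also part of the centromere-binding complex CBF3, rose by 2.70 ± 0.21 and RSC3, a DNA-binding subunit of the RSC remodeller, by 2.55 ± 0.16. The drug resistance regulator YRR1 rose by 1.93 ± 0.13, the stress regulator ASG1 by 1.82 ± 0.14 and CAT8, an activator of gluconeogenic genes, by 1.74 ± 0.15. For all of these the CR and NR arrays were apart. The members that fell were SUT1 and SUT2, regulators of sterol uptake, and SUT1 is not called without CR replicate 1 or 3 or NR replicate 1 or 2. Without CR replicate 1 or 3 or NR replicate 2 the lower count is 1.

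Among 23 basic zipper, basic helix-loop-helix and related regulators, 12 were higher and 3 lower (median 1.11). All of INO2, INO4 and OPI1, the activator pair and the repressor of phospholipid genes, rose. INO4 was at 9.43, 9.43 and 9.39 in CR and 7.54, 7.04 and 7.05 in NR (change 2.21 ± 0.16), INO2 changed by 1.71 ± 0.11 and OPI1 by 1.88 ± 0.19. YAP7 rose by 2.15 ± 0.24, MET4, the activator of sulfur genes, by 1.99 ± 0.14, and CST6 by 1.96 ± 0.21. MET28, a partner of Met4, went the other way, at 3.64, 3.41 and 3.68 in CR beside 6.55, 6.26 and 6.45 in NR. TYE7, an activator of glycolytic genes, was at 5.12, 5.05 and 5.05 in CR beside 8.68, 8.49 and 9.81 in NR, and YAP6 at 2.21, 2.75 and 2.60 beside 6.10, 5.52 and 5.45. None of these 3 genes overlapped between the groups.

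Of 43 zinc finger regulators of stress and nutrients, 12 were higher and 8 lower (median 0.40). TDA9 rose by 2.28 ± 0.12, AFT2, an activator of iron genes, by 2.17 ± 0.21, ECM23 by 2.16 ± 0.35, STP2, which is cleaved on amino acid sensing, by 1.91 ± 0.13, and AZF1 by 1.80 ± 0.20. The deepest falls were in MSN4, a stress activator, at 4.34, 4.25 and 4.29 in CR beside 8.30, 8.14 and 8.92 in NR, and STP4, at 5.61, 5.66 and 5.81 beside 9.68, 9.77 and 10.13. ASH1, which restrains mating type switching in daughter cells, was 9.97-fold lower, and HAP4, the glucose-responsive subunit of the activator of respiratory genes, 8.16-fold. RME1, a repressor of meiosis, was 5.28-fold lower and COM2 3.62-fold.

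The general transcription apparatus did not move as a block. Of 49 measured subunits of chromatin remodelling complexes, 18 were higher and 3 lower (median 0.58). SWI1 of SWI/SNF was at 9.19, 9.02 and 9.0 in CR and 6.92, 7.05 and 6.88 in NR, and its ATPase gene SNF2 changed by 1.67 ± 0.11. RSC4 and RSC58 of RSC rose by 1.95 ± 0.24 and 1.91 ± 0.20, and VPS71 of the SWR1 complex by 1.64 ± 0.15. SFH1, another RSC subunit, fell by 1.21 on the log2 scale and IOC3, a partner of Isw1, fell by 1.23. Of 30 subunits of TFIID and SAGA, coactivators that bring the polymerase to promoters, 10 were higher and 2 lower (median 0.48). TAF7 was at 8.25, 8.28 and 8.27 in CR and 6.52, 5.96 and 5.73 in NR, while TAF11 was at 3.80, 3.74 and 3.82 in CR and 5.24, 6.03 and 6.14 in NR. SPT8 rose by 1.95 ± 0.15, TAF13 by 1.74 ± 0.11, SPT20 by 1.72 ± 0.16, TAF12 by 1.68 ± 0.18 and TAF6 by 1.63 ± 0.13, and SUS1 changed by -1.72 ± 0.16. Mediator had 2 of 24 higher, CSE2 at 2.28 ± 0.11 and MED7 at 1.20 ± 0.18, and 3 lower, NUT1, SIN4 and SRB7, with a median of 0.52. SRB7 is not called without NR replicate 2, and the higher count was 4 without NR replicate 1.

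Genes for histone methylation and deacetylation gave 9 higher and 4 lower of 34 (median 0.36), or 8 and 1 of 25 without dim genes. SET1, the histone H3 lysine methyltransferase, was at 8.59, 8.60 and 8.55 in CR beside 6.65, 6.63 and 6.69 in NR. SET3 and HOS2, a scaffold and a deacetylase of the same complex, rose by 1.73 ± 0.10 and 1.49 ± 0.13, and RXT3 and RXT2 of the large Rpd3 complex by 1.59 ± 0.20 and 1.43 ± 0.15. HDA1, the catalytic subunit of another deacetylase, moved against them, at 3.48, 3.63 and 3.41 in CR beside 5.76, 5.72 and 5.98 in NR, and HDA2 of its complex changed by -1.90 ± 0.22.

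Of 15 genes for RNA polymerase I and its initiation factors, which transcribe ribosomal RNA, 7 were lower and 2 higher (median -0.24), and the 2 higher ones, RRN3 and RRN5, are not called without NR replicate 3, nor RRN5 without CR replicate 2 or NR replicate 1. Without dim genes 3 of 8 were lower and 1 higher. RPA49 fell by 2.24 ± 0.34, RPA12 by 2.18 ± 0.25, RPA43 by 2.12 ± 0.26 and RRN11 by 1.92 ± 0.13. RPA190, the largest subunit, was not called, at 7.0, 7.0 and 7.07 in CR and 6.99, 6.79 and 7.73 in NR. Of 7 measured genes for subunits of RNA polymerase II, RPO21 and RPB2, which encode its largest subunits, rose by 1.28 ± 0.17 and 1.13 ± 0.12 and 0 fell. RNA polymerase III and its factor TFIIIC had 2 of 21 higher, RPO31 and TFC3, and 0 lower, or 1 lower without NR replicate 2. Differences between the 3 counts were not tested.

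Genes that handle messenger RNA were called higher more often than lower in the splicing group and in the decapping and deadenylation group. Of 68 spliceosome genes, 16 were higher and 5 lower (median 0.53), or 15 of 49 higher and 1 lower without dim genes. PRP4 was at 7.62, 7.53 and 7.61 in CR and 5.20, 5.30 and 5.02 in NR, and SMX3, a core Sm protein, at 9.83, 9.88 and 9.90 beside 7.53, 8.01 and 6.73. PRP18 rose by 2.33 ± 0.24, CLF1 by 2.07 ± 0.24 and LEA1 by 1.93 ± 0.21. PRP43, a helicase that takes spliceosomes apart and also serves ribosome assembly, was 6.41-fold lower and SNU13, shared by the U4 snRNP and box C/D snoRNPs, 2.81-fold lower. Of 33 genes for decapping and deadenylation, 10 were higher and 2 lower (median 0.16), and 1 lower without NR replicate 1. DHH1, a helicase that promotes decapping, stood at 10.56, 10.54 and 10.71 in CR beside 8.66, 8.38 and 7.95 in NR. EDC1 rose by 1.89 ± 0.22, NAM7, the nonsense-mediated decay helicase Upf1, by 1.77 ± 0.11, and its partner UPF3 changed by -2.19 ± 0.12, at 5.39, 5.38 and 5.31 in CR beside 7.71, 7.52 and 7.43.

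Messenger RNA-binding regulators divided, with 7 of 34 higher and 9 lower (median 0.04). Among the Pumilio proteins, which bind 3′ untranslated regions, MPT5 (Puf5) was at 5.02, 4.87 and 4.6 in CR beside 8.35, 8.09 and 8.60 in NR, an 11.4-fold fall. PUF4 rose by 1.52 ± 0.13 and PUF2 by 1.31 ± 0.14, so members of this family went in both directions. WHI3, which holds G1 cyclin messages, rose by 2.11 ± 0.21. RIE1 was 5.34-fold lower and VTS1, a binder of hairpin elements, 4.46-fold lower. In 3′ end processing 6 of 21 were lower and 3 higher (median -0.34), but 2 of 13 lower and 3 higher without dim genes, with HRP1 lower by 3.15-fold and FIP1 higher by 3.10-fold. For the nuclear exosome and its helpers 5 of 25 were lower and 3 higher (median -0.05), but 2 of 20 lower and 3 higher without dim genes. RRP45 and RRP42 of the exosome ring changed by -1.72 ± 0.13 and -1.17 ± 0.11, and LRP1, a nuclear cofactor, by 1.61 ± 0.18.

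Of 65 genes for tRNA modification and processing, 17 were lower and 10 higher (median -0.33). Without dim genes the counts turned, with 4 of 41 lower and 10 higher. TRM11, which methylates a guanosine of tRNA, was at 2.52, 1.67 and 1.22 in CR beside 4.6, 4.97 and 5.80 in NR. KTI12, an Elongator partner, fell by 2.45 ± 0.25, TRM2 by 2.36 ± 0.28 and the pseudouridine synthase gene DEG1 by 1.72 ± 0.15. SEN54, a subunit of the tRNA splicing endonuclease, went up, at 9.38, 9.16 and 9.25 in CR beside 7.17, 6.25 and 6.44. UBA4 and ELP6, both needed for the thiolated and carbamoylated wobble uridine, rose by 1.91 ± 0.13 and 1.63 ± 0.12. At the nuclear envelope, karyopherins and the Ran cycle had 7 of 22 lower and 1 higher (median -0.12), or 2 higher without NR replicate 1, and 4 of 18 lower without dim genes. GSP1, the Ran GTPase, was at 6.50, 6.46 and 6.59 in CR beside 8.76, 8.87 and 9.66, and SRM1, its exchange factor, fell by 1.89 ± 0.30. Nuclear pore genes had 5 of 32 higher and 4 lower (15.6% and 12.5%, median -0.07), with both shares under those of all genes. POM152 was highest at 1.74 ± 0.24 and NUP133 lowest at -1.26 ± 0.12. Without NR replicate 3 the counts of nuclear pore genes were 3 and 3, and without dim genes 5 of 29 were higher and 2 lower.

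Of 45 kinetochore genes, 21 were higher and 4 lower (46.7% and 8.89%, median 0.54), and without NR replicate 3 the counts were 20 and 4. Without dim genes 16 of 23 were higher and 0 lower. SPC19 of the microtubule-binding DASH ring was at 7.98, 7.90 and 7.99 in CR beside 6.09, 5.64 and 5.18 in NR. AME1 of the inner kinetochore rose by 2.23 ± 0.19, SPC105 by 1.87 ± 0.14 and CHL4 by 1.77 ± 0.15. OKP1, whose product forms a complex with that of AME1, was lower, at 3.62, 3.70 and 3.50 in CR beside 4.66, 4.68 and 5.58. MIF2, the yeast CENP-C, changed by -1.90 ± 0.24, NNF1, of the linker complex MIND, by -2.52 ± 0.39, and NKP1 by -2.37 ± 0.20. The spindle pole body, tubulin and motor group had 14 of 39 higher and 5 lower (median 0.64), or 3 lower without NR replicate 3, and 10 of 19 higher and 2 lower without dim genes. ASE1, the bundler of the spindle midzone, was at 9.59, 9.66 and 9.69 in CR beside 7.38, 6.74 and 6.37, and SPC97, of the gamma-tubulin complex, at 5.97, 6.02 and 5.87 beside 3.47, 3.50 and 3.99. TUB3, the minor alpha-tubulin gene, was 4.39-fold lower, while TUB1, the major one, was not called, at 7.89, 8.01 and 8.07 in CR and 6.97, 7.90 and 7.72 in NR.

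The anaphase promoting complex, the ubiquitin ligase that ends mitosis and keeps G1, had 6 of 16 higher and 1 lower (median 0.73), and 5 and 2 without NR replicate 3. MND2 was at 8.41, 8.38 and 8.39 in CR beside 5.72, 5.46 and 4.89 in NR. The repeat subunits CDC23, CDC27 and CDC16 rose by 2.51 ± 0.18, 2.14 ± 0.35 and 1.88 ± 0.19. CDH1, the activator used in G1 and in resting cells, rose by 2.12 ± 0.15, whereas CDC20, the mitotic activator, was not called, at 5.76, 5.65 and 5.48 in CR and 6.16, 6.08 and 5.83 in NR. SWM1 was the member called lower, at -1.18 ± 0.14.

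Of 43 cell cycle regulators, 10 were higher and 9 lower (median 0.08), but 7 of 19 higher and 1 lower without dim genes. WHI5, the repressor of Start, was at 7.64, 7.71 and 7.72 in CR beside 5.38, 5.27 and 4.74 in NR. SWI4 and SWI6, which form the activator that Whi5 holds back, fell by 1.87 ± 0.35 and 1.69 ± 0.22. CLN3, the cyclin that begins Start, lay at 4.95, 5.11 and 5.00 in CR and 5.85, 6.40 and 8.03 in NR, with NR replicate 3 far above its mates, for a change of -1.74 ± 0.46. SWI5, an activator at mitotic exit, fell by 3.04 ± 0.16, and FKH1, a forkhead regulator, rose by 2.57 ± 0.15. BUB2 and BFA1, which form the brake on mitotic exit, rose by 2.08 ± 0.14 and 1.70 ± 0.20. Of 12 genes for the Pho85 kinase, its cyclins and its inhibitor, PHO80, PCL5 and PCL8 were higher and 0 lower (median 0.51), or 1 lower without CR replicate 1, NR replicate 1 or NR replicate 2. PCL8 is not called without CR replicate 1 or NR replicate 3.

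DNA repair and checkpoint genes had 19 of 70 higher and 2 lower (median 0.47), or 16 of 52 higher and 0 lower without dim genes. RAD34 was at 6.89, 6.86 and 6.91 in CR beside 4.64, 4.03 and 3.93 in NR. The translesion polymerase gene RAD30 rose by 2.06 ± 0.11, the helicase gene SRS2 by 2.06 ± 0.13, XRS2 of the MRX complex by 1.86 ± 0.12 and the checkpoint kinase gene CHK1 by 1.79 ± 0.21. DUN1, another checkpoint kinase, and PHR1, the photolyase, were the members that fell. In replication 13 of 50 were higher and 8 lower (median 0.16). Of the 6 subunits of the replicative helicase, 4 were called lower, 1 higher and 1 not called. MCM5 was at 3.46, 2.95 and 3.32 in CR beside 5.02, 5.38 and 6.34, and MCM2, MCM3 and MCM7 changed by -1.58 ± 0.16, -1.83 ± 0.41 and -1.09 ± 0.36, MCM7 not being called without NR replicate 3. MCM6 was higher, at 6.21, 6.21 and 6.30 beside 4.76, 4.69 and 5.59, and MCM4 was not called, at 0.48 ± 0.12. MCM7, MCM6 and MCM4 are named to complete the complex after their values were seen. DPB11, PSF2 and PSF3, which help to load or form that helicase at origins, were higher, DPB11 at 9.61, 9.58 and 9.58 beside 7.53, 7.11 and 6.50. Without NR replicate 1 the count of replication genes called lower was 13, and without dim genes 4 of 26 were lower and 9 higher. Cohesin and condensin had 3 of 22 higher and 4 lower, and without NR replicate 3 the lower count was 2. Without dim genes 0 of 10 were lower and 1 higher. SMC2, a core subunit of condensin, was at 2.93, 2.51 and 3.22 in CR beside 5.72, 6.05 and 6.71.

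Meiotic genes had 12 of 56 higher and 11 lower (median 0.00), and 6 of 16 higher and 2 lower without dim genes. OSW7 was at 9.13, 9.23 and 9.15 in CR beside 5.57, 5.68 and 5.63. MSH4, a crossover factor, rose by 2.63 ± 0.27 and REC107 by 1.88 ± 0.20. HOP2 and MND1, whose products act as a pair, both fell, MND1 by 1.91 ± 0.29, and DMC1, the meiotic recombinase that they assist, was at 4.27, 4.21 and 4.6 in CR beside 7.20, 9.14 and 5.44.

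Of 30 genes for septins, the bud neck and cytokinesis, 12 were lower and 2 higher, with a median of -0.74, the lowest of the 70 lists of function plotted. Without dim genes 3 of 13 were lower and 1 higher. The mitotic septin genes CDC10, CDC12 and SHS1 fell, by 2.36 ± 0.46, 1.57 ± 0.17 and 1.33 ± 0.17 (SHS1 was chosen after its value was seen). CDC3 and CDC11, the other septins of the vegetative ring, were not called, with CDC11 at 6.06, 5.97 and 6.15 in CR and 5.97, 6.38 and 6.71 in NR. GIN4, a kinase of the septin ring, was at 4.23, 4.24 and 4.10 in CR beside 6.22, 5.76 and 6.54, and the myosin of the contractile ring, MYO1, at 4.12, 4.09 and 3.86 beside 5.67, 5.34 and 6.11. SPR28, a septin of sporulation, was higher, at 6.28, 6.16 and 6.29 beside 5.30, 4.04 and 3.69. Actin itself, ACT1, was at 8.02, 8.08 and 8.01 in CR beside 10.07, 11.08 and 11.27, a 6.83-fold fall, and the profilin gene PFY1 and the tropomyosin gene TPM1 fell by 1.69 ± 0.36 and 1.95 ± 0.36. The cofilin gene COF1 was not called, at 9.07, 9.07 and 9.06 in CR and 9.19, 9.51 and 9.66 in NR. In the endocytic patch 8 of 47 were lower and 5 higher (median -0.15), with both shares under those of all genes, and 4 of 41 lower and 5 higher without dim genes. CHC1, clathrin heavy chain, fell by 2.01 ± 0.46 and ABP1, an actin-binding patch protein, by 1.55 ± 0.21, while the patch kinase gene ARK1 rose by 2.5 ± 0.23 and SLA1 by 1.77 ± 0.11.

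Of 49 genes for wall proteins anchored by glycosylphosphatidylinositol (GPI), Pir proteins, which bind glucan directly, and flocculins, 22 were lower and 3 higher (44.9% and 6.12%, median -0.73), and 19 and 2 without NR replicate 3 (median -0.48). The other 24 were not called. Without dim genes 20 of 38 were lower and 1 higher. The Pir genes PIR3, HSP150 and PIR1 were among the deepest, PIR3 at 7.36, 7.32 and 7.47 in CR beside 11.57, 11.55 and 12.16 in NR. HSP150 fell by 3.64 ± 0.38 and PIR1 by 3.58 ± 0.40. PST1, a wall protein that marks cell wall stress, was at 5.78, 5.71 and 5.65 beside 9.42, 9.24 and 10.85, and NCA3, of the SUN family, at 8.30, 8.37 and 8.36 beside 11.72, 12 and 11.91. The mating type a agglutinin subunit AGA2 was lower on every CR array, at 4.64, 4.69 and 4.68 beside 6.90, 7.66 and 9.14. Flocculins, chosen after their values were seen, differed in direction. FLO11, needed for invasion and biofilms, was at 2.83, 2.62 and 2.61 in CR beside 5.50, 5.88 and 4.84, while FLO9 rose by 1.38 ± 0.19, on a probe set whose suffix marks it as shared with similar genes, so its value may mix family members.

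In glucan and chitin synthesis 12 of 48 genes were lower and 4 higher (median -0.25). EXG1, the major exo-glucanase, was at 5.35, 5.37 and 5.39 in CR beside 7.94, 8.23 and 10.70, and KRE9, needed for beta-1,6-glucan, at 6.31, 6.35 and 6.35 beside 8.71, 8.62 and 8.82. GAS1, a glucan-remodelling enzyme, lay at 6.25, 6.65 and 9.15 in NR, the third array far above the others, for a change of -1.98 ± 0.61. CHS1, the chitin synthase that repairs the wall after separation, rose, at 10.69, 10.65 and 10.73 beside 8.74, 8.32 and 8.85. The glucan synthase genes FKS1 and GSC2 were not called, at -0.27 ± 0.31 and 0.29 ± 0.11. In the cell wall integrity pathway 4 of 22 were lower and 2 higher (median 0.33), or 1 higher without NR replicate 3, among them the sensor genes SLG1 at 1.23 ± 0.15 and WSC3 at -1.29 ± 0.21.

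**Figure D2:**
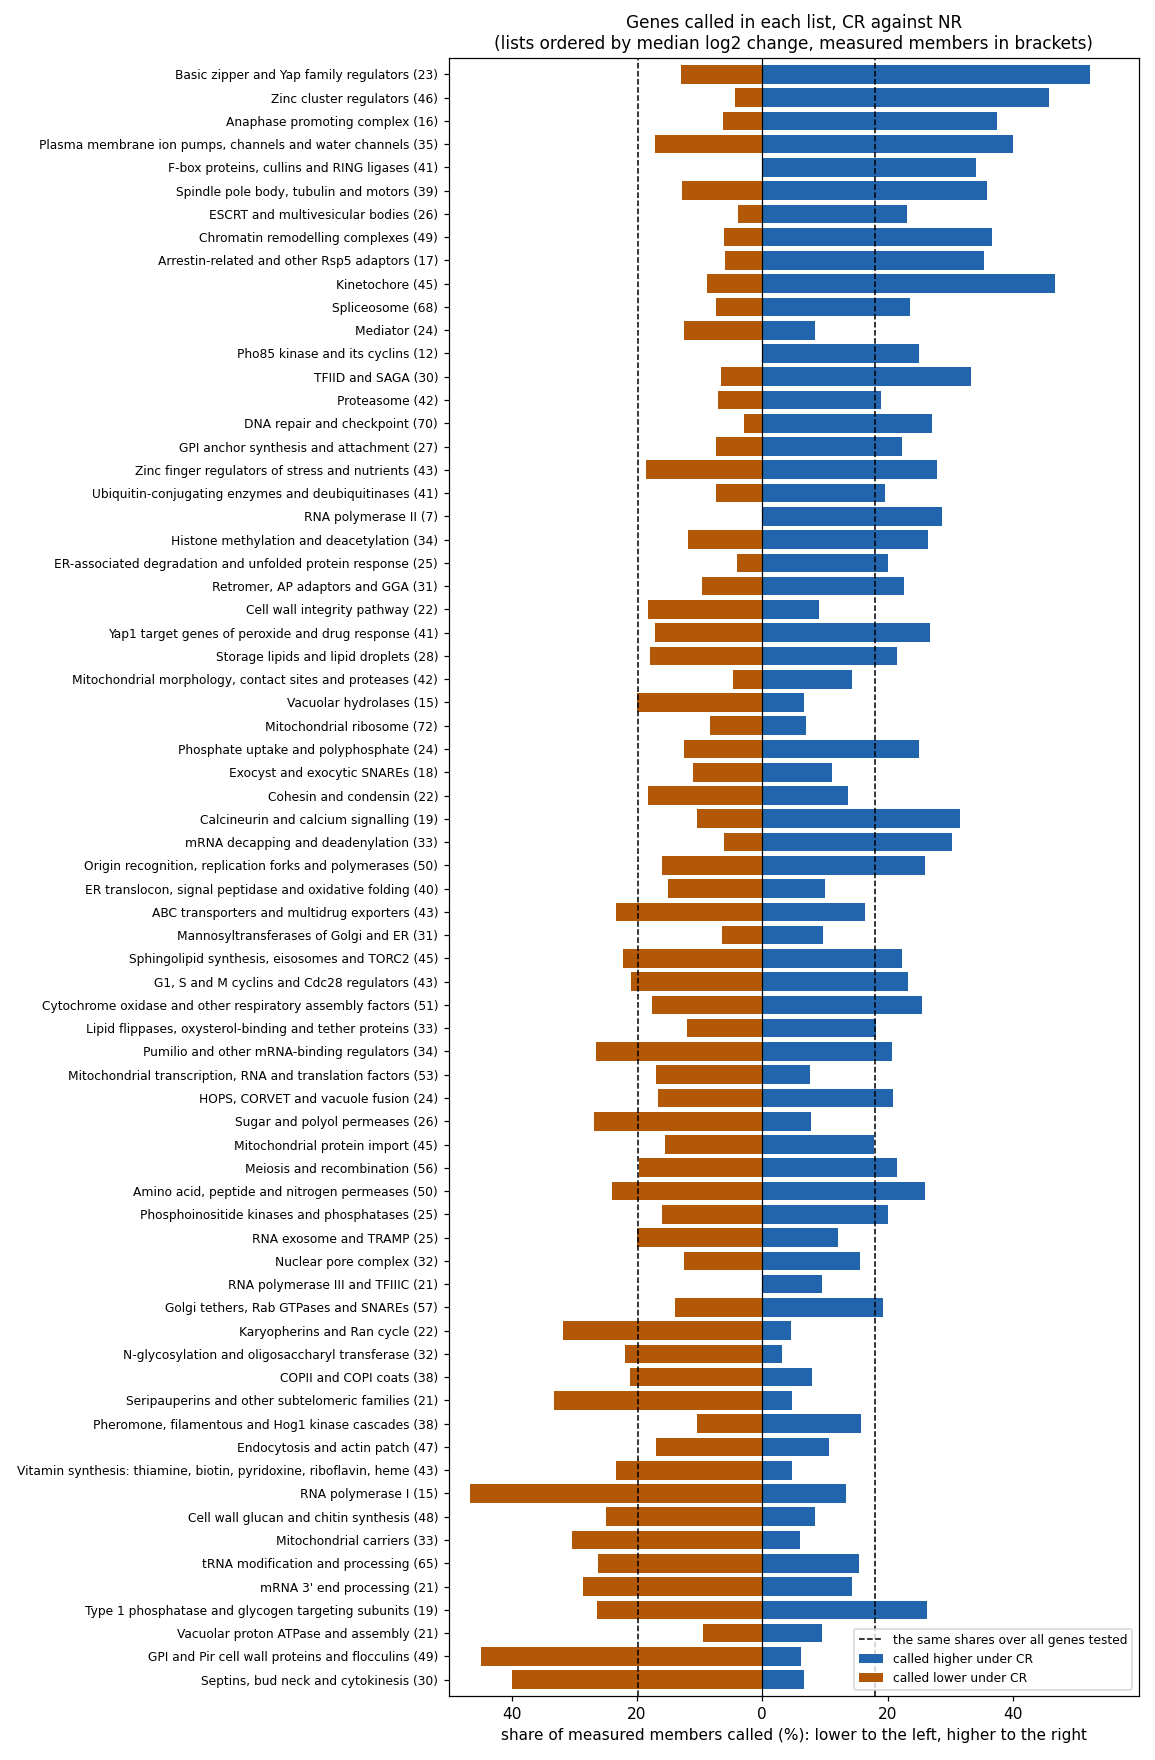
Share of the measured members of 70 gene lists called higher (blue, right) and lower (orange, left) under CR, with lists ordered by their median log2 change and the number of measured members in brackets. The dashed lines mark the shares over all genes tested, 17.9% higher and 19.9% lower. Regulators of transcription, the kinetochore and the anaphase promoting complex lie past the line on the higher side, and septins, wall proteins and RNA polymerase I past it on the lower side.

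The secretory pathway gave small counts. COPII and COPI coat genes had 8 of 38 lower and 3 higher (median -0.13), and without NR replicate 1 the higher count was 1. RET2 and SEC27 of coatomer fell by 1.46 ± 0.14 and 1.29 ± 0.18, and SEC12, the exchange factor that starts COPII assembly, by 2.08 ± 0.36. N-glycosylation had 7 of 32 lower and 1 higher (median -0.13). ALG7, at 8.42, 8.44 and 8.48 in CR beside 5.53, 5.33 and 4.88, stood against ALG12, a mannosyltransferase of the same lipid-linked glycan, at 4.97, 4.90 and 4.95 beside 7.19, 7.89 and 6.90. WBP1, a subunit of the oligosaccharyl transferase, fell by 1.97 ± 0.24. GPI anchor synthesis, by contrast, had 6 of 27 higher and 2 lower (median 0.41), with GPI19 at 5.70, 5.57 and 5.79 beside 3.82, 3.18 and 3.32 and GPI2, another subunit of the same first enzyme, at -1.49 ± 0.17. The ER translocon, signal peptidase and oxidative folding group had 4 of 40 higher and 6 lower (median 0.12), with both shares under those of all genes. Its higher count was 2 without NR replicate 3. Within the signal recognition particle SRP14 rose by 1.74 ± 0.17, while SRP72 and SRP68, a bound pair, fell by 1.89 ± 0.30 and 1.77 ± 0.30. Other subunits of the particle are not given here.

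Golgi tethers, Rab GTPases and SNAREs had 11 of 57 higher and 8 lower (median -0.11), and 10 of 41 higher and 1 lower without dim genes. The conserved oligomeric Golgi complex fell in part: COG3 was at 2.90, 2.91 and 2.59 in CR beside 5.48, 5.13 and 5.33, and COG1, COG2 and COG5 changed by -1.79 ± 0.27, -1.23 ± 0.18 and -1.74 ± 0.11. The Rab genes YPT1 and YPT53, of the early secretory pathway and of endosomes, rose, with YPT1 at 10.84, 10.84 and 10.89 beside 9.48, 9.66 and 9.57 and YPT53 at 1.46 ± 0.24. ESCRT and Rim pathway genes had 6 of 26 higher and 1 lower (median 0.62), the latter 0 without CR replicate 3 or NR replicate 2 and 2 without NR replicate 3. DOA4, the deubiquitinase that frees cargo at the endosome, was at 9.72, 9.84 and 9.83 beside 7.73, 7.37 and 7.0, and RIM101, the alkaline response regulator, rose by 1.42 ± 0.16 and its protease gene RIM13 by 1.74 ± 0.12. In retromer and the adaptor complexes 7 of 31 were higher and 3 lower (median 0.34), and the lower count was 5 without NR replicate 1. The counts were 7 of 26 higher and 1 lower without dim genes. The sorting nexin genes ATG20 and SNX41, partners in one complex, rose by 2.14 ± 0.17 and 1.80 ± 0.20. VPS17 of the retromer nexin pair rose by 1.67 ± 0.16.

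Genes of vacuole fusion (HOPS and CORVET) had 5 of 24 higher and 4 lower, and 3 and 0 without NR replicate 3. The counts were 4 of 13 higher and 0 lower without dim genes. VPS3 of CORVET rose by 1.78 ± 0.17 and VAC7, which raises the vacuolar phosphoinositide, by 1.70 ± 0.14. The proton ATPase of the vacuole had 2 of 21 higher and 2 lower (median -0.50), or 1 higher without NR replicate 1 and 1 lower without NR replicate 3. Vacuolar hydrolases and their inhibitors had 1 of 15 higher, ATG15, a lipase that opens autophagic bodies, at 7.23, 7.25 and 7.33 in CR beside 5.58, 5.25 and 5.13, and 3 lower. Of these, PBI2 and TFS1, inhibitors of proteinase B and of carboxypeptidase Y, fell by 2.22 ± 0.36 and 1.5 ± 0.18.

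Among mitochondrial genes outside the respiratory enzymes the shares called varied by group. The mitochondrial ribosome had 5 of 72 higher and 6 lower (median 0.21). MRPL28 was at 10.16, 10.06 and 10.22 in CR beside 8.26, 7.99 and 7.82, and MRP13 at 4.56, 4.39 and 4.34 beside 6.49, 6.47 and 6.56. Factors for mitochondrial RNA and translation had 4 of 53 higher and 9 lower (median 0.02), and the higher count was 2 without NR replicate 2. Without dim genes 4 of 30 were higher and 1 lower. The synthetase genes MSW1, MSD1, MST1 and MSY1, which charge mitochondrial tRNAs, fell by 1.85 ± 0.33, 1.76 ± 0.16, 1.75 ± 0.28 and 1.5 ± 0.14. Protein import had 8 of 45 higher and 7 lower (median 0.00), or 8 of 38 higher and 3 lower without dim genes. The subunits of the matrix processing peptidase were called in opposite directions, with MAS1 at 9.0, 9.12 and 9.12 in CR beside 7.62, 7.29 and 7.40 and MAS2 at 4.57, 4.43 and 4.15 beside 6.0, 6.13 and 6.73. In the outer membrane translocase TOM22 rose by 1.34 ± 0.15 and TOM40 and TOM5 fell by 1.45 ± 0.10 and 2.56 ± 0.20.

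Assembly factors of cytochrome oxidase and other respiratory complexes, with ubiquinone synthesis, had 13 of 51 higher and 9 lower (median 0.08), or 12 of 42 higher and 5 lower without dim genes. Genes of ubiquinone synthesis accounted for 4 of the 6 deepest falls, COQ2 at 3.0, 2.83 and 3.16 in CR beside 4.83, 5.16 and 5.75 and COQ8, COQ6 and COQ3 at -2.15 ± 0.28, -1.92 ± 0.22 and -1.80 ± 0.15. Among copper carriers of the oxidase, COX17 was lower, at 5.90, 5.76 and 5.91 beside 8.0, 7.61 and 8.61, while CMC1 and COX23 rose by 1.55 ± 0.11 and 1.54 ± 0.25. Mitochondrial carriers had 10 of 33 lower and 2 higher (median -0.30). MPC2, a subunit of the pyruvate carrier, was at 5.92, 6.07 and 6.0 beside 8.94, 8.86 and 8.84. MPC1 and MPC3, which encode other subunits of that carrier, were not called, at 0.68 ± 0.41 and 0.69 ± 0.29. The phosphate carrier genes MIR1 and PIC2 fell by 1.96 ± 0.16 and 1.74 ± 0.14, and the GTP carrier gene GGC1 by 2.53 ± 0.36. MRS4, which carries iron, rose, at 8.65, 8.86 and 8.90 beside 6.80, 6.77 and 5.95, and CTP1, the citrate carrier, rose by 1.47 ± 0.13. Genes for mitochondrial shape and proteolysis had 6 of 42 higher and 2 lower (median 0.23). FZO1, needed for fusion, and FIS1, needed for fission, both rose, by 1.65 ± 0.15 and 1.35 ± 0.12, and MIC60 and MIC19 of the crista junction fell by 1.79 ± 0.42 and 1.33 ± 0.23.

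Ubiquitin ligases leaned to the higher side. Of 41 F-box proteins, cullins and RING ligases, 14 were higher and 0 lower (median 0.64), and 11 and 2 without NR replicate 3. RMD5, a subunit of the GID ligase that degrades gluconeogenic enzymes, was at 9.59, 9.58 and 9.60 in CR beside 7.60, 7.16 and 6.91 in NR, and VID30 of the same ligase rose by 1.45 ± 0.13. GRR1, the F-box protein of glucose signalling, was at 9.10, 9.02 and 9.09 beside 7.17, 7.58 and 7.47. Conjugating enzymes and deubiquitinases had 8 of 41 higher and 3 lower (median 0.40). ULP2, a SUMO protease, rose by 2.53 ± 0.27, while UBC4, a conjugating enzyme for short-lived and abnormal proteins, was at 6.61, 6.51 and 6.56 beside 9.32, 9.23 and 9.57. Arrestin-related and other adaptors of the Rsp5 ligase had 6 of 17 higher and 1 lower (median 0.57), or 0 lower without NR replicate 3, with TRE2 at 1.84 ± 0.20, RCR2 at 1.67 ± 0.15 and BSD2 at 1.58 ± 0.18. The proteasome had 8 of 42 higher and 3 lower (median 0.48), and 5 and 3 without NR replicate 3. Its chaperone gene HSM3 was highest, at 9.12, 8.97 and 9.10 beside 6.80, 6.81 and 6.17, and RPN11, the deubiquitinase of the lid, rose by 1.25 ± 0.12.

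Of 43 ABC transporters and multidrug exporters, 10 were lower and 7 higher (median 0.11). Beside PDR12, the polyamine exporter genes TPO2 and TPO1 were low, TPO1 at 4.58, 4.48 and 4.86 in CR beside 8.66, 8.63 and 8.82 in NR. AQR1, an exporter of short acids and amino acids, was at 3.16, 3.22 and 2.69 beside 7.21, 6.74 and 7.65, and PDR5, the main drug pump, at 7.88, 7.73 and 7.77 beside 10.67, 10.41 and 10.30. The regulator PDR1, which activates PDR5 and was chosen after its value was seen, was higher, at 8.60, 8.69 and 8.63 beside 6.52, 6.96 and 7.37. Of 35 ion pumps, channels and water channels, 14 were higher and 6 lower (median 0.70). The potassium antiporter gene KHA1 was at 10.65, 10.71 and 10.66 beside 8.55, 8.30 and 7.83, the potassium channel gene TOK1 rose by 1.88 ± 0.14 and the sodium antiporter gene NHA1 by 1.51 ± 0.13. ATO2, of a family linked to ammonium and acetate export, changed by -3.58. PMA1, the proton pump, was not called, and only NR replicate 3 was high, with 6.36, 6.21 and 9.31 in NR beside 6.51, 6.43 and 6.50 in CR.

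Sugar and polyol permeases and their sensors had 7 of 26 lower and 2 higher (median 0.00), and the higher count was 4 without NR replicate 1. The counts were 4 of 14 lower and 1 higher without dim genes. HXT3, a hexose carrier of low affinity, was at 5.22, 5.48 and 5.49 in CR beside 9.66, 9.25 and 8.32, and RGT2, the sensor of high glucose, at 6.06, 6.03 and 5.95 beside 7.88, 8.05 and 7.72. STD1, which links the sensors to the repressor Rgt1, rose by 2.64 ± 0.20. HXT5, a carrier of resting cells, was not called, at 11.66, 11.65 and 11.70 beside 11.48, 11.29 and 11.49. For amino acids, peptides and nitrogen 13 of 50 were higher and 12 lower (median -0.03). Vacuolar exporters AVT6 and AVT4 rose by 2.25 ± 0.17 and 1.82 ± 0.16, as did SSY1, the amino acid sensor of the plasma membrane, by 2.05 ± 0.18, with STP2 of the same pathway given above. The uridine permease gene FUI1 was at 6.60, 6.69 and 6.67 beside 9.31, 9.50 and 9.46, and the lysine permease gene LYP1 fell by 1.96 ± 0.11. The general permease gene GAP1 was not called, at 9.51, 9.58 and 9.58 beside 8.99, 9.93 and 11.39.

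Lipid genes showed no single direction. Sphingolipid synthesis, eisosomes and TORC2 had 10 of 45 higher and 10 lower (median 0.08). ORM1, which restrains the first enzyme of the pathway, was at 7.71, 7.79 and 7.78 in CR beside 6.21, 5.65 and 5.50, and SLM1 and SLM2, which link eisosomes to TORC2, rose by 1.71 ± 0.22 and 1.71 ± 0.17. The synthetic enzymes SUR2, TSC13 and IPT1 fell by 1.95 ± 0.16, 1.66 ± 0.13 and 1.47 ± 0.13. Storage lipid genes had 6 of 28 higher and 5 lower (median 0.26). The acyltransferase gene GPT2 rose by 1.83 ± 0.22 and the triacylglycerol lipase genes TGL4 and TGL3 by 1.65 ± 0.17 and 1.30 ± 0.12, while YEH1, a steryl ester hydrolase, was at 4.57, 4.42 and 4.31 beside 7.57, 7.28 and 6.87. PAH1, the phosphatidate phosphatase, fell by 1.53 ± 0.18. Phosphoinositide enzymes had 5 of 25 higher and 4 lower (median -0.05), with the kinase gene LSB6 at 8.98, 9.15 and 9.10 beside 6.54, 6.60 and 6.24. Flippases and oxysterol-binding proteins had 6 of 33 higher and 4 lower (median 0.04), and the lower count was 8 without NR replicate 1.

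In signalling, calcineurin and calcium genes had 6 of 19 higher and 2 lower (median 0.17), the lower count being 1 without CR replicate 3, NR replicate 2 or NR replicate 3. CRZ1, the regulator that calcineurin activates, was at 8.62, 8.71 and 8.67 in CR beside 7.31, 7.33 and 6.74, and its targets PMR1 and CMK2 rose by 1.49 ± 0.17 and 1.44 ± 0.14. Kinase cascades of pheromone, filamentous growth and osmotic stress had 6 of 38 higher and 4 lower (median -0.15). STE7 and SSK2, kinases of the upper tiers, rose by 2.06 ± 0.17 and 1.79 ± 0.17, while HOG1, the kinase at the end of the osmotic branch, fell by 1.20 ± 0.13 and TEC1, the filamentous regulator, by 1.75 ± 0.18. Targeting subunits of type 1 phosphatase had 5 of 19 higher and 5 lower (median -0.37), and the higher count was 3 without NR replicate 3. REG1, which directs the phosphatase in glucose repression, rose, at 10.41, 10.40 and 10.37 beside 9.01, 8.76 and 8.33, and its relative REG2 fell, at 7.50, 7.61 and 7.56 beside 8.83, 8.84 and 8.60. The catalytic subunit gene GLC7 was not called, at -0.37 ± 0.12.

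Phosphate genes had 6 of 24 higher and 3 lower (median 0.20), and the lower count was 5 without NR replicate 2. All of VTC1, VTC2, VTC3 and VTC4, subunits of the vacuolar polyphosphate polymerase, rose, VTC2 at 9.87, 9.90 and 9.83 in CR beside 7.81, 8.02 and 8.01 in NR. VTC3 is not called without NR replicate 1, and VTC5, a later recognised subunit, was not called, at 0.16 ± 0.17. The exopolyphosphatase gene PPX1 fell, at 3.98, 3.68 and 4.02 beside 5.09, 5.88 and 6.40. The uptake genes differed: PHO89, coupled to sodium, rose by 1.5 ± 0.17, PHO90, of low affinity, fell by 1.35 ± 0.17, and PHO84, of high affinity, was not called. Vitamin and heme synthesis had 10 of 43 lower and 2 higher (median -0.16), or 1 higher without NR replicate 3. The biotin synthase gene BIO2 was at 4.63, 4.86 and 4.89 beside 6.69, 7.52 and 6.72, whereas BIO5, which takes up a biotin precursor, was at 5.08, 4.93 and 5.05 beside 3.37, 3.69 and 3.39. THI4, which makes the thiamine thiazole, fell by 1.71 ± 0.34.

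Genes were also compared over 4 equal groups by signal and by length. Signal is the mean over the 9 arrays, which include the CR arrays compared. A fall under CR thus moves a gene toward the dimmest group, and the part of this in the shares was not tested. In the dimmest group 9.24% were higher and 26.7% lower (median -0.34). In the brightest the shares were 23.6% and 21.0% (median 0.26), and the third group had the lowest share called lower, 15.1%. By coding length, the longest group had 21.9% higher and 15.2% lower, and the second had 15.2% and 25.2%. Among the 10 genes nearest each chromosome end the shares were 16.9% and 17.3%, and among the next 10 the share called higher was 22.0%. Of 516 genes with only a systematic name, 15.1% were higher and 15.3% lower. Of the 70 lists plotted, 24 had more members called lower than higher. Without dim genes 15 of these still did and 8 had more called higher, while all 42 lists with more called higher kept that order. The order turned for the mitochondrial ribosome, at 5 higher and 4 lower of 68, and Mediator, at 2 and 1 of 18, besides the lists named above. The part of length in the counts of the lists was not tested.

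**Figure D3:**
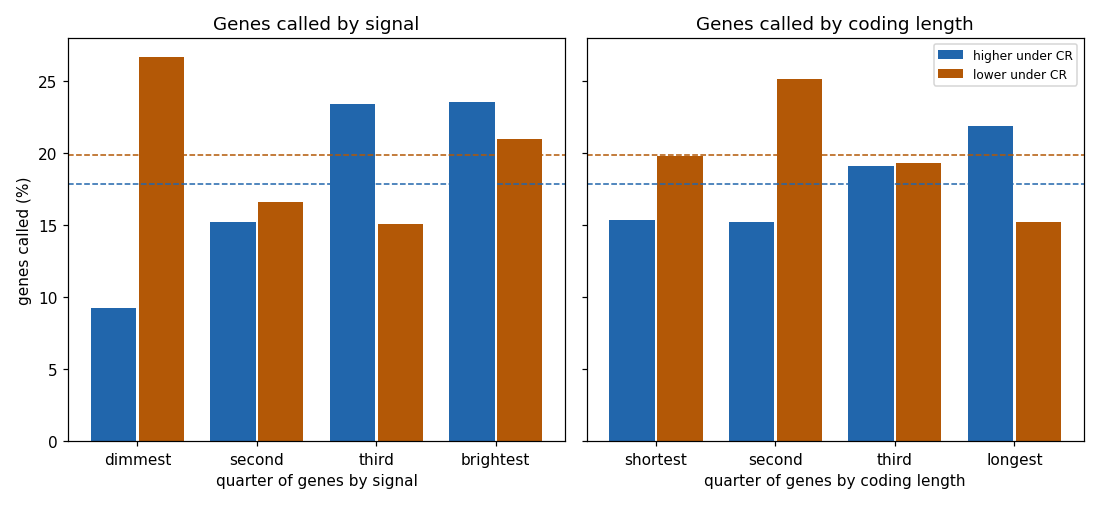
Percent of genes called higher (blue) and lower (orange) under CR in each of 4 equal groups of genes, by mean log2 value over the 9 arrays (left) and by coding length (right), with dashed lines at the shares over all genes. The dimmest group has 9.24% higher and 26.7% lower, and the longest 21.9% higher and 15.2% lower. The 9 arrays include the CR arrays compared, so a change under CR itself shifts a gene between the groups on the left.

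Paralogues are pairs of genes that descend from the same ancestor, in yeast often from a duplication of the whole genome, and often share part of their function. The change of 242 such pairs outside cytosolic ribosomal proteins, glycolysis and heat shock proteins was compared within each array, as the log2 value of the first member minus that of the second. Of the pairs, 128 (52.9%) were called unequal, with an adjusted p under 0.05 over the pairs and a difference between the members' changes of 2-fold or more. The median absolute difference was 1.09. The same share and median over pairs of unrelated genes were not computed. The counts therefore do not show whether paralogues differ more or less than other genes. Both members were called in the same direction in 25 pairs, 11 higher and 14 lower, in opposite directions in 17, only 1 member was called in 122 and neither in 78. Without NR replicate 3, 112 of the 128 were still unequal.

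The largest difference was that of the stress activators MSN2 and MSN4. Their per-array difference was -1.26, -1.06 and -1.64 in NR and 4.44, 4.52 and 4.45 in CR. MSN2 was at 8.78, 8.76 and 8.74 in CR and 7.04, 7.08 and 7.28 in NR, and its change differed from that of MSN4 by 5.79 ± 0.20 (limma, adjusted p = 8.21e-09). MSN2 changed by 1.63 and MSN4 by -4.16. For the old yellow enzymes, NADPH oxidoreductases, the difference of OYE2 from OYE3 was 2.74, 2.32 and 2.82 in NR and -2.85, -2.76 and -2.85 in CR. OYE2 was at 4.61, 4.77 and 4.76 in CR beside 8.40, 8.03 and 9.10, and OYE3 changed by 1.65. For MMT1 and MMT2, mitochondrial metal transporters, it was 1.01, 0.50 and 0.50 in NR and -4.66, -4.58 and -4.42 in CR, with changes of -4.17 and 1.05, the latter (MMT2) not called without NR replicate 3. Groups overlapped in none of these pairs, and the share of all pairs for which this holds was not counted.

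Membrane and metabolic pairs were also called in opposite directions. The basic amino acid permeases CAN1 and ALP1 changed by -1.59 and 2.64, and their difference of -4.23 ± 0.70 rests on a wide NR spread of 3.0, 2.15 and 5.64 beside -0.62, -0.70 and -0.57 in CR. Without NR replicate 3 it was -3.20. The external mitochondrial NADH dehydrogenases NDE1 and NDE2 changed by -2.43 and 1.49 (difference -3.92 ± 0.40). The asparagine synthetases ASN1 and ASN2 changed by -2.16 and 1.15, with NR differences of -0.69, -0.67 and 1.78, so that NR replicate 3 stood apart, and the difference was -2.50 without it and -3.32 with it. PGM1 and PGM2, the phosphoglucomutases, changed by 1.08 and -1.37, the flippases DNF1 and DNF2 by 1.12 and -1.18, and the phosphatidylinositol transfer proteins PDR16 and PDR17 by -1.20 and 1.0. DNF2 is not called without NR replicate 3, nor PDR17 without CR replicate 2 or 3 or NR replicate 2. In each of these pairs the CR and NR differences were apart, which was likewise not counted over all pairs.

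Regulators, RNA helicases and adaptors were among the others, not all of which are described. DED1 and DBP1, helicases of translation initiation, changed by -1.60 and 1.85, with differences of -0.53, -0.37 and 0.16 in NR and -3.65, -3.70 and -3.71 in CR. The zinc finger regulators RSF2 and TDA9 changed by -1.60 and 2.28, the TRAMP subunits AIR1 and AIR2 by -1.05 and 1.61, and the Rsp5 adaptors TRE1 and TRE2 by -1.04 and 1.84. The kinases YPK1 and YPK2, which TORC2 activates, changed by 1.17 and -1.56. All 17 such pairs were also called unequal without NR replicate 3. In 12 of the 17 both members kept their own call without it, and MMT2, DNF2, TRE1, DBF2 and SPH1 did not. AIR1 is not called without CR replicate 2 or NR replicate 1.

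**Figure D4:**
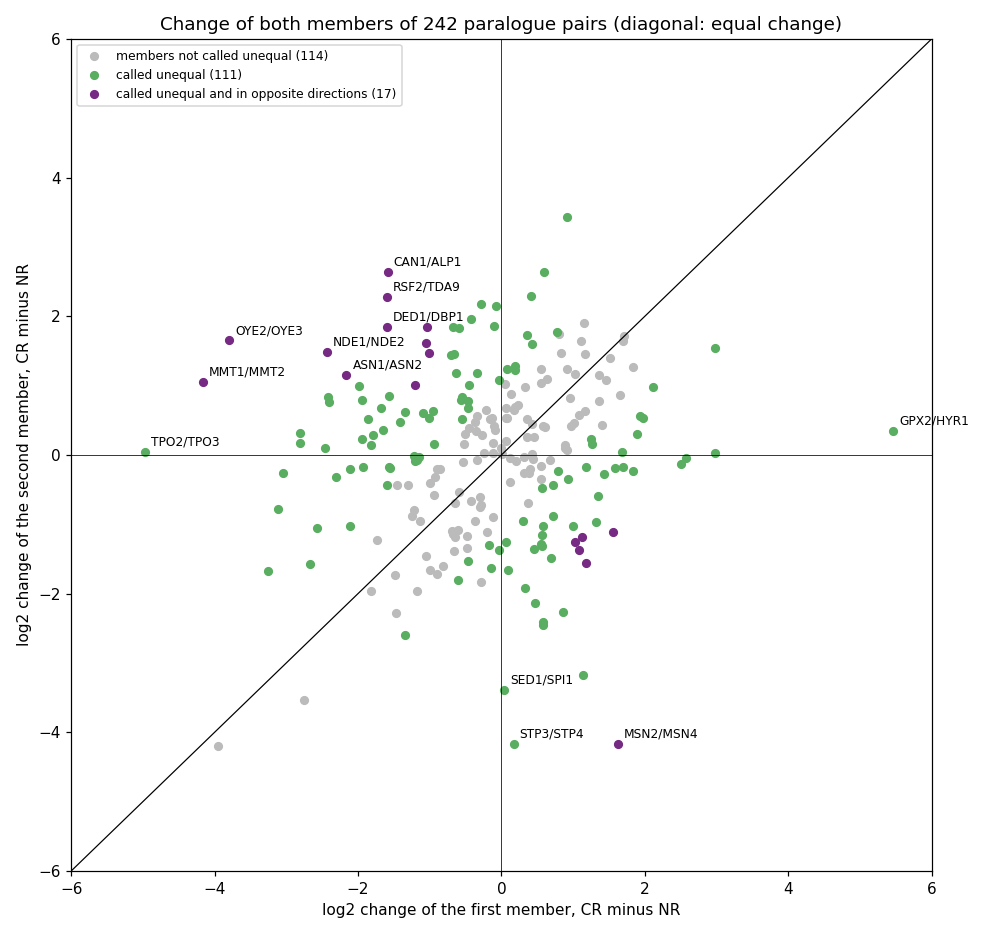
Log2 change, CR minus NR, of the first (x axis) and the second member (y axis) of 242 paralogue pairs, with the diagonal where both changed equally. Of the points, 128 were called unequal, 17 of these with members called in opposite directions (purple). MSN2/MSN4, OYE2/OYE3 and MMT1/MMT2 lie farthest from the diagonal.

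In the other pairs with large differences a single member was called. HYR1, the relative of GPX2, was at 10.11, 10.16 and 10.19 in CR and 9.73, 9.97 and 9.73 in NR, a change of 0.34, and the difference between their changes was 5.11 ± 0.16. TPO3 was at 5.34, 5.23 and 5.49 in CR and 5.48, 4.74 and 5.71 in NR, beside the 31.5-fold fall of TPO2 (difference -5.02 ± 0.36). STP3 was not called, at 0.17, beside STP4 at -4.16. SED1, an abundant wall protein of stationary cells, was at 12.60, 12.70 and 12.70 beside 12.65, 12.68 and 12.58, whereas its relative SPI1 was at 7.87, 8.11 and 8.08 beside 11.67, 11.67 and 10.89. SKS1, a kinase of the response to low glucose, changed by -2.43 and VHS1 by 0.83, and the reductases GCY1 and YPR1 by -2.40 and 0.76. CIN5 was not called, at 7.10, 7.23 and 7.15 beside 6.91, 6.48 and 4.69, and its difference from YAP6 was 4.31 ± 0.40.

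Other pairs moved together. YAP1 and CAD1, basic zipper activators of oxidative and metal stress genes, changed by 1.69 and 1.65, with a difference of 0.04 and a 95% interval from -0.29 to 0.37. SLM1 and SLM2 changed by 1.71 and 1.71, and IGO1 and IGO2, which protect messages on entry into quiescence, by 1.46 and 1.08. The wall protein genes UTH1 and NCA3 changed by -2.76 and -3.53, and the glycerol phosphatase genes GPP1 and GPP2 by -3.96 and -4.21. PDR5 and PDR15, both drug pumps, changed by -2.67 and -1.57, and GSP1 and GSP2, both Ran GTPases, by -2.58 and -1.06, and both pairs were called unequal. IGO2 is not called without NR replicate 3, nor GSP2 without NR replicate 2. These pairs were chosen from the 25 after their values were seen. That a pair was not called unequal does not show that its members changed alike.

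**Figure D5:**
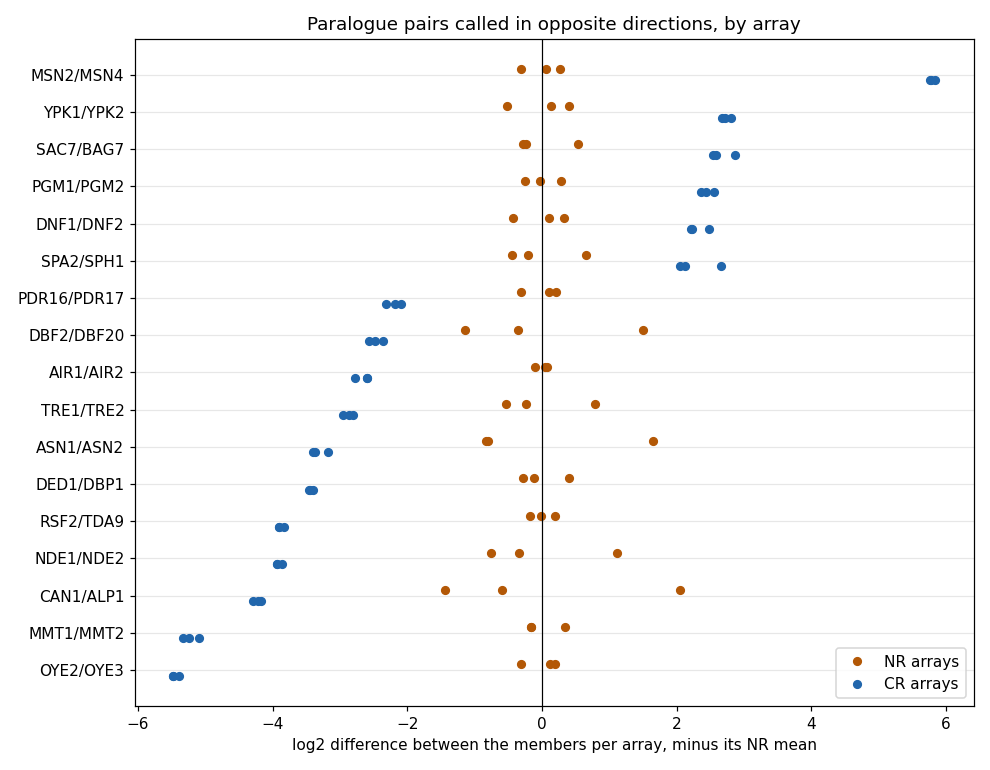
Log2 difference between the members of the 17 paralogue pairs called in opposite directions, on each NR array (orange) and CR array (blue), drawn relative to the mean NR difference of the pair. CR arrays lie above 0 for 6 pairs and below 0 for 11, and the NR arrays of CAN1/ALP1, ASN1/ASN2 and DBF2/DBF20 spread most.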

How the data were processed

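Each sample was a GeneChip Yeast 2.0 array, 3 for each of CR, NR and RM, grouped by the labels. The authors deposited 1 log2 value per probe set and array, and a table whose fold column (unit score: a signed linear fold change) and p-value were made for each pair of groups. The submitters' processing notes name RMA and Transcriptome Analysis Console 2.0 without their roles, and for the deposited p-values no test is given in the sources used here. Group means of the deposited log2 values gave the same folds. No detection call was used, and the number of arrays limits the precision.

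For each gene the first listed probe set was taken, and names came from RefSeq (5646 of 5667 matched). Limma 3.58.1 in R 4.3.3 was fitted to all 9 arrays without a block, with Benjamini-Hochberg adjustment over all genes. A call needed an adjusted p under 0.05 and a 2-fold change. Paralogue pairs were fitted as per-array differences, adjusted over 242 pairs. The planned choice of pairs by protein identity could not be used without protein sequences, so a list written by hand replaced it. The members and lists were chosen with earlier results of these data known. The naming rule picked up to 6 called members a direction in each list, every member of families of at most 12, and the 15 highest and lowest genes. It also picked the 15 pairs with the largest difference or with opposite calls. Only some of the genes and pairs picked are printed here. One gene list and one pair are not reported here. The steps were run on simulated data with 200 changed genes. At a true log2 change of 1, the limit itself, 46% of 50 genes were called, and at 2, 98%. The simulation gave all groups the same spread for a gene, so it does not test calls under the unequal spread seen here.

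Deviations of same-numbered arrays of CR and NR correlated at 0.073, 0.086 and -0.025. As the CR arrays hardly differed from each other, these values cannot decide whether the replicate numbers pair the samples. Alternatives covered the fold limit, centring, probe set choice, dim genes, 6 arrays alone, the block, array weights, the deposited folds and leaving out each array.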

Additional observations from a re-analysis of the deposited data

How the results depend on the processing

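Of all 5667 genes, 3284 were called at a 1.5-fold limit, 991 at 3-fold and 3905 with no limit. Genes called higher numbered 1646, 367 and 2003 in that order, and genes called lower 624 at 3-fold and 1902 with no limit. Without the dimmest of 4 equal groups of genes, 747 were called lower. Leaving out each array gave 1937 to 2375 called genes, 890 to 1120 higher and 1047 to 1255 lower, and 119 to 132 unequal pairs. The 6 arrays alone gave 2123 genes and 126 pairs, centring 2142 genes, the deposited folds and p-values 2067, and weights by group, chosen after seeing the data, 2139 genes and 130 pairs. With the replicate block, the paired fit called 2144 genes and 129 pairs, and as a pairing by number was not established it is given only here. Of the 634 genes that the naming rule picks, most of them not printed here, 66 were not called without NR replicate 3, at most 25 without any other array, and 0 reversed in any setting. The planned limit on protein identity of the pairs was not run. The fit used a common spread although that of NR was wider than that of CR. Signal over background was not analysed here.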

Other observations

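Neighbouring genes on the chromosomes gave 5386 pairs, chosen for a look after the other results were seen and given as counts only. Among the 1370 divergent pairs, which share the stretch between their starts, both genes were called in 228, in the same direction in 171, with 88 both higher, 83 both lower and 57 opposite. Convergent pairs had both called in 213 of 1422, 132 of them in the same direction, and tandem pairs in 391 of 2594, 247 of them in the same direction. The difference between these counts was not tested. Among divergent neighbours, PIR1 and PIR3 changed by -3.58 and -4.38, and ALG7 and the peroxidase gene GPX2 by 3.20 and 5.46. The wall gene NCA3 and ASF1, a histone chaperone, changed by -3.53 and -3.01, and KTI12 and HAP4 by -2.45 and -3.03. SWI5 and EKI1, an ethanolamine kinase gene, changed by -3.04 and 2.60.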
